A study of Mus musculus with 40 samples.

Results

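The comparison described here sets day 9 of a Ctbp2 time course against day 3 in mouse embryonic stem cells labelled as a double knockout of the CtBP genes Ctbp1 and Ctbp2. Its members are the columns of days 3 and 9 in the time course count table, 2 libraries for each day, which makes 4 of the 10 time course libraries and 4 of the 40 samples in the series. All 4 libraries came from E14tg2a, an embryonic stem cell line, with the genotype CtbpDKO and the treatment word Dox, and they differ only in the day. Days 0, 12 and 18 carry the same genotype and treatment word, so the time course holds no wild type library. The labels give no clone, no dose and no day on which the agent was added or withdrawn. They also do not say whether the 2 libraries of a day came from separate cultures, so p-values measure only the spread between these libraries. The medium was GMEM, supplemented with serum and LIF, the cytokine that keeps such cells undifferentiated. The wild type (WT) and CtbpDKO libraries of a separate genotype table, and days 0, 12 and 18, are used only for reference values.

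CtBP proteins are corepressors without a DNA-binding domain of their own. They are brought to promoters and enhancers by sequence-specific factors such as Zeb1 and join Lsd1 (Kdm1a), histone deacetylases and histone methyltransferases. In mouse embryonic stem cell cultures a small and changing fraction of cells enters a state with transcripts of the 2-cell embryo, among them Zscan4, Usp17l and Eif4a3l genes. The transcription factor Dux is an activator of that state, and Zscan4 proteins act on telomeres and heterochromatin.

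The time course libraries held 16674526 to 30169626 counts, and those of days 3 and 9 held 22364611, 20176054, 24910232 and 23204400. Levels are given as CPM, the counts scaled to a common library size by TMM, with replicate 1 first. Structural RNA genes took 5.02% to 7.83% of the counts over the time course, with the lowest share in day 9 replicate 1. Mitochondrially encoded genes took 0.614% to 1.21%, with the highest share in day 9 replicate 2. The cells carried their defining transcripts on both days, with Pou5f1, the core pluripotency factor, at 578 and 596 CPM on day 3 and at 598 and 599 CPM on day 9. Of 12 fibroblast markers, Lum, Postn and Fap had 0 counts in these 4 libraries, 6 were tested and 0 called, and the list summed to 14.4 to 18.4 CPM on day 3 and 16.2 to 17.7 CPM on day 9. Among the members with counts, Pdgfrb had 70 and 50 counts on day 3 and 121 and 100 on day 9.

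Ctbp2 checked the labels first. Its level was 544 and 573 CPM on day 3 and 310 and 296 CPM on day 9, and the day 9 libraries lay below both day 3 libraries. The change from day 3 to day 9 was 1.84-fold down (log2 fold change -0.88, SE 0.10, adjusted p = 0.00168, quasi-likelihood test of edgeR, Benjamini-Hochberg adjusted over all tested genes, as for every adjusted p here). Day 0 stood at 58.9 and 59.3 CPM and day 12 at 49.4 and 44.7 CPM. Ctbp2 was therefore high on both days compared, but it was not held at one level between them, and the word "sustained" fits only in that sense. Ctbp1 had 0 counts in all 4 libraries of days 3 and 9 and could not be tested. The other 24 of 25 tested genes of the CtBP complexes did not pass the test. Among them were Klf3 (log2 fold change 0.45, adjusted p = 0.0634) and Rreb1 (0.57, adjusted p = 0.0644), both DNA-binding partners of CtBP.

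**Figure D1:**
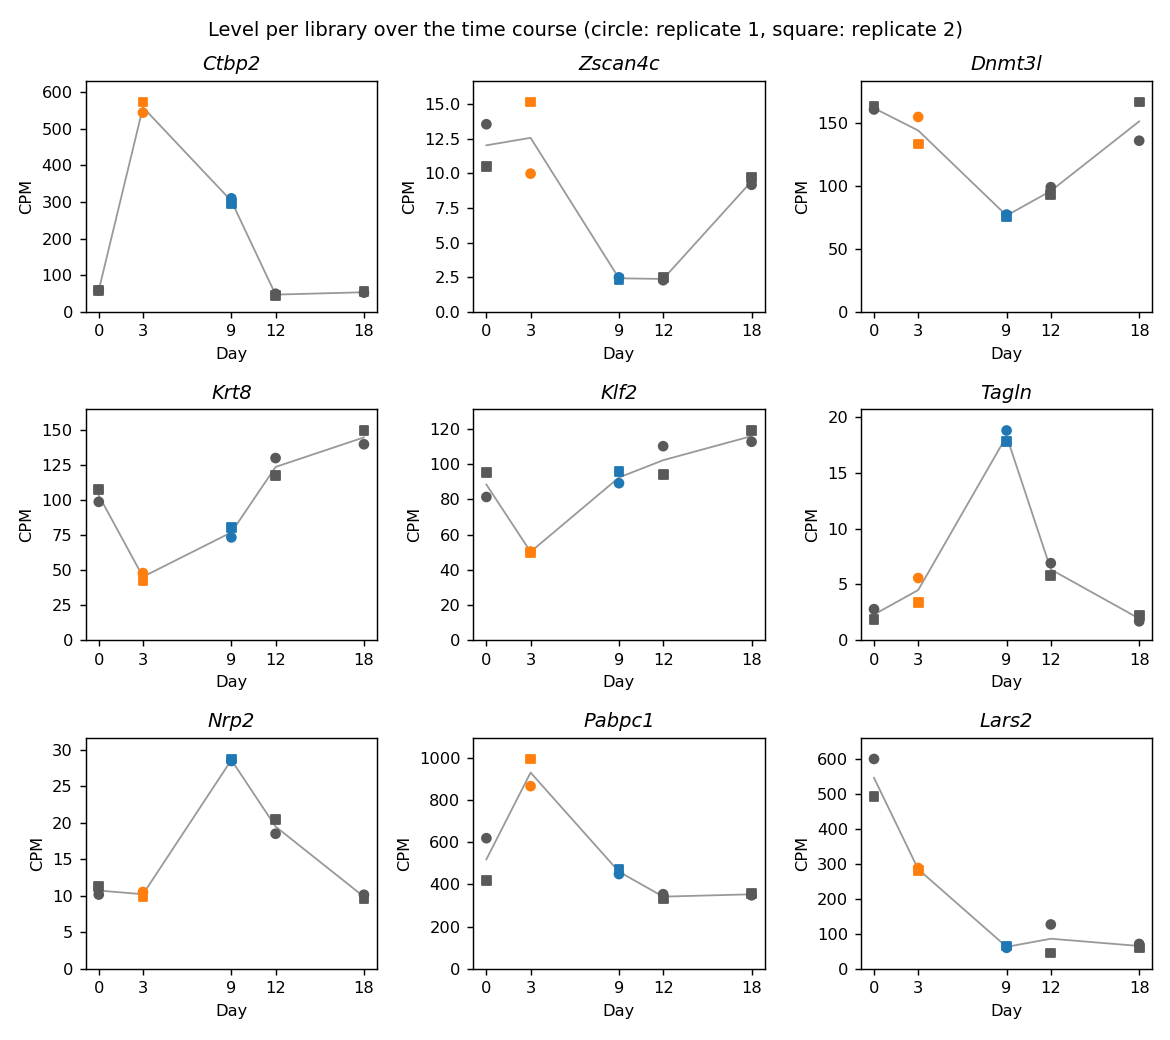
Level in CPM (vertical axis, linear, from 0) against day (horizontal axis) for 9 genes over the 10 time course libraries. Circles are replicate 1, squares replicate 2, the grey line joins the means, orange marks day 3 and blue day 9. Ctbp2 stood at 544 and 573 CPM on day 3 and at 310 and 296 on day 9, while Zscan4c was at 2.49 and 2.36 CPM on day 9 after 9.97 and 15.1 on day 3.

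The change between the days was narrow in number. Of 20612 tested genes, 230 were called at an adjusted p under 0.05, which is 1.12% of the genes. Of these, 108 were higher on day 9 (0.524% of tested genes) and 122 were lower (0.592%). The lower genes moved further, with a median log2 fold change of -1.03 against 0.79 for the higher genes, and 65 lower but 31 higher genes changed at least 2-fold. The libraries of the 2 days did not overlap for any of the 230 called genes, against 44.1% of all tested genes. The calls rest on the same values, so this is no separate evidence. Symbols of predicted genes and of small nucleolar RNA, microRNA and histone genes made up 46 of the 122 lower genes (37.7%) and 6 of the 108 higher ones (5.56%), against 28.9% of all tested genes. Leaving out 1 library gave 25 higher and 48 lower genes without day 3 replicate 1, and 21 and 33 without day 3 replicate 2. The counts were 35 and 41 without day 9 replicate 1, and 36 and 65 without day 9 replicate 2. The single library left in that group is then assumed to vary like the other groups. 29 genes were called in all 4 of these fits, 8 higher and 21 lower. Among the higher were Nrp2, AI661453, Tagln, Klf2, Ly75, Rbm47 and Dmrt1. Among the lower were Zscan4c, Zscan4-ps2, Sfmbt2, Ctbp2, Cgnl1, Dnmt3l, Crmp1, Lncenc1, Bc1, Eif4a3l1 and Eif4a3l2. Genes named here outside those 29 lost their call in at least 1 of the 4 fits, and all 230 kept their direction in each.

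**Figure D2:**
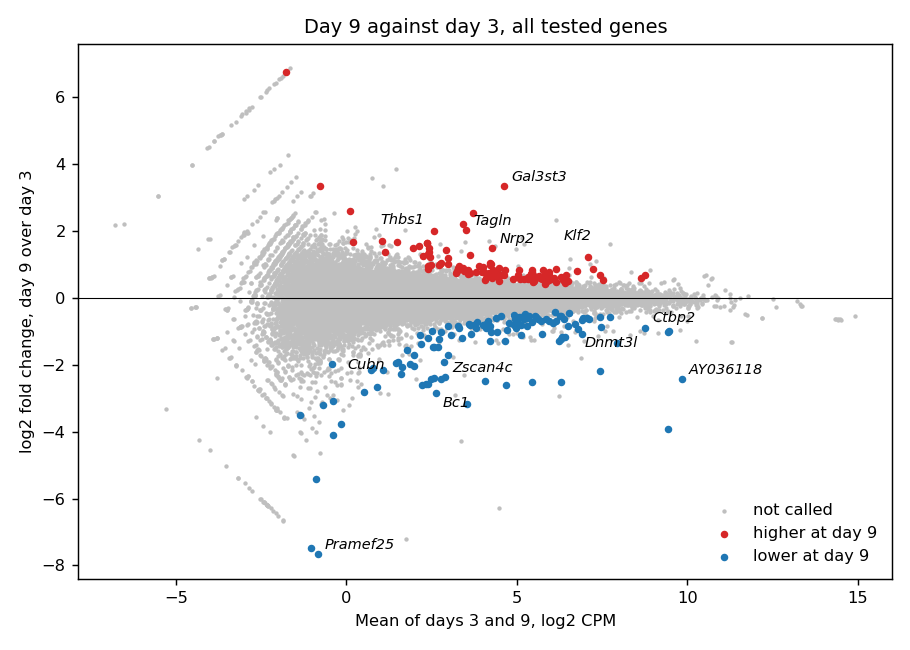
log2 fold change of day 9 over day 3 (vertical axis) against the mean level of the 2 days in log2 CPM (horizontal axis) for tested genes, with 108 called higher genes in red, 122 called lower genes in blue and the rest in grey. 2 tested genes with no count on these days are not drawn. The called lower genes reach further from 0 than the called higher genes, with medians of -1.03 and 0.79.

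Zscan4c had the smallest p among the lower genes, and 7 genes of its family were called lower. They lie together on chromosome 7 in GRCm38.p6 (the mm10 assembly). The stretches upstream of Zscan4c (chr7:11005495-11005721, plus strand) and Zscan4f (chr7:11397688-11397914, plus strand), taken from RefSeq, are shown because they differ at 1 of 227 bases, marked by a capital.

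Zscan4c: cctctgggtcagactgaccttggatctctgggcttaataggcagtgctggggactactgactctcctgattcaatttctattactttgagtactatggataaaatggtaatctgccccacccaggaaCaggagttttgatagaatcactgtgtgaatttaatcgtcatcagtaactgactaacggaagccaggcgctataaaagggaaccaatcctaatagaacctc
Zscan4f: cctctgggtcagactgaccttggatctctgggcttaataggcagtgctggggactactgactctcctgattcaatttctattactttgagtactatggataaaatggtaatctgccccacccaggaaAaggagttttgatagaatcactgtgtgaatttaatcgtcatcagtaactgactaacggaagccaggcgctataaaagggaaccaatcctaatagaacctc

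Zscan4 is a multigene family, so the values of its single genes are uncertain where counting could split reads between copies, which was not tested. Between Zscan4a and Zscan4-ps3 (chr7:10794241-11614112) 9 genes were tested, all with a negative fold change, and 7 were called lower. Summed over those 7, the level was 52.9 and 70.6 CPM on day 3 and 12.5 and 12.8 CPM on day 9. The 7 were picked by their calls between these same days, so the separation of the sums follows from that choice. Zscan4c, a zinc finger gene that marks the 2-cell-like state, fell from 9.97 and 15.1 CPM to 2.49 and 2.36 CPM (5.17-fold, log2 fold change -2.37, SE 0.23, adjusted p = 0.000957). Zscan4f fell from 10.6 and 12.3 CPM to 2.67 and 3.36 CPM (3.80-fold, adjusted p = 0.00727). Zscan4e (log2 fold change -2.59) and Zscan4a (-1.98) also fell. In the same family Zscan4b (-2.43, adjusted p = 0.0513) and Zscan4d (-2.87, adjusted p = 0.104) did not pass the test. In these bulk samples, fewer cells in the 2-cell-like state and less RNA per such cell cannot be told apart.

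On day 3 itself the Zscan4 genes stood near their day 0 level. Their summed level was 69.8 and 50.7 CPM on day 0, so days 0 and 3 overlapped, while Ctbp2 on day 3 was at its highest of the course. Zscan4c had a log2 fold change of 0.06 from day 0 to day 3 (adjusted p = 0.911), and 0 of the 7 genes was called in that comparison, against a background of 2.41% higher and 2.59% lower calls. edgeR gave the 7 genes adjusted p-values of 0.552 to 0.985. It shares the day 3 libraries with the present one, so the values are set side by side only. On day 12, with Ctbp2 back at the day 0 level, the Zscan4 sum was still 7.24 and 12.2 CPM, and on day 18 it was 35.3 and 45.5 CPM.

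Of 28 tested members of the list of 2-cell genes, 7 fell, 0 rose and 21 did not pass the test. The 7 made up 25% of the list, against 0.592% of all tested genes called lower. Of the 28, 26 had a negative fold change, and the median was -1.69 against 0.002 over all tested genes. The called members were 5 Zscan4 genes and the deubiquitinase genes Usp17lc (2.00 and 3.62 CPM on day 3, 0.768 and 0.524 on day 9) and Usp17le (5.48 and 6.63 CPM, then 1.98 and 1.75). Leaving out day 3 replicate 2 kept 2 calls, leaving out day 9 replicate 1 or replicate 2 kept 4 or 3, and leaving out day 3 replicate 1 kept 6. Duxf3, a copy of Dux, had 1.17 and 0.969 CPM on day 3 and 0.622 and 0.131 CPM on day 9. That difference did not pass the test (log2 fold change -1.46, SE 0.69, adjusted p = 0.421), and day 9 replicate 2 held only 3 Duxf3 counts. Dppa2, an upstream activator of Dux, was close on both days (58.6 and 58.0 CPM, then 48.7 and 55.9, adjusted p = 0.579). Pramel7, a gene of the inner cell mass, had at most 9 counts in any of the 4 libraries and did not pass the test (adjusted p = 0.897).

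Unnamed genes in tandem arrays fell beside the named 2-cell genes. They were picked out after their values were seen, because they are neighbours. On chromosome 10 (chr10:104142987-104196522) the predicted genes Gm21293, Gm21304, Gm21312, Gm20765 and Gm4340 were all called lower. Their summed level was 236 and 333 CPM on day 3 and 67.6 and 30.3 CPM on day 9. Only genes called lower between these same days are in the sum, so its separation follows from that choice. Within the array, Gm21304 fell from 112 and 155 CPM to 31.5 and 14.8 CPM (5.72-fold, adjusted p = 0.00151). On chromosome 13 (chr13:119845361-119950806) D13Ertd608e, Gm21761 and B020031M17Rik went from a sum of 12.9 and 13.5 CPM to 2.67 and 1.53 CPM. On chromosome 12 (chr12:88248738-88321762) Gm8332, Gm5662 and Gm5039 went from 16.8 and 23.5 CPM to 7.32 and 7.29 CPM. Pramef25, a gene of the Prame family, had 28 and 17 counts on day 3 and 0 in both day 9 libraries, which makes it at least 9.29-fold lower against a floor of 3 counts per library. The translation factor copies Eif4a3l1 (5.97 and 6.73 CPM, then 1.68 and 1.40) and Eif4a3l2 (4.40 and 4.38 CPM, then 1.17 and 1.09) fell 4.09-fold and 3.86-fold.

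**Figure D3:**
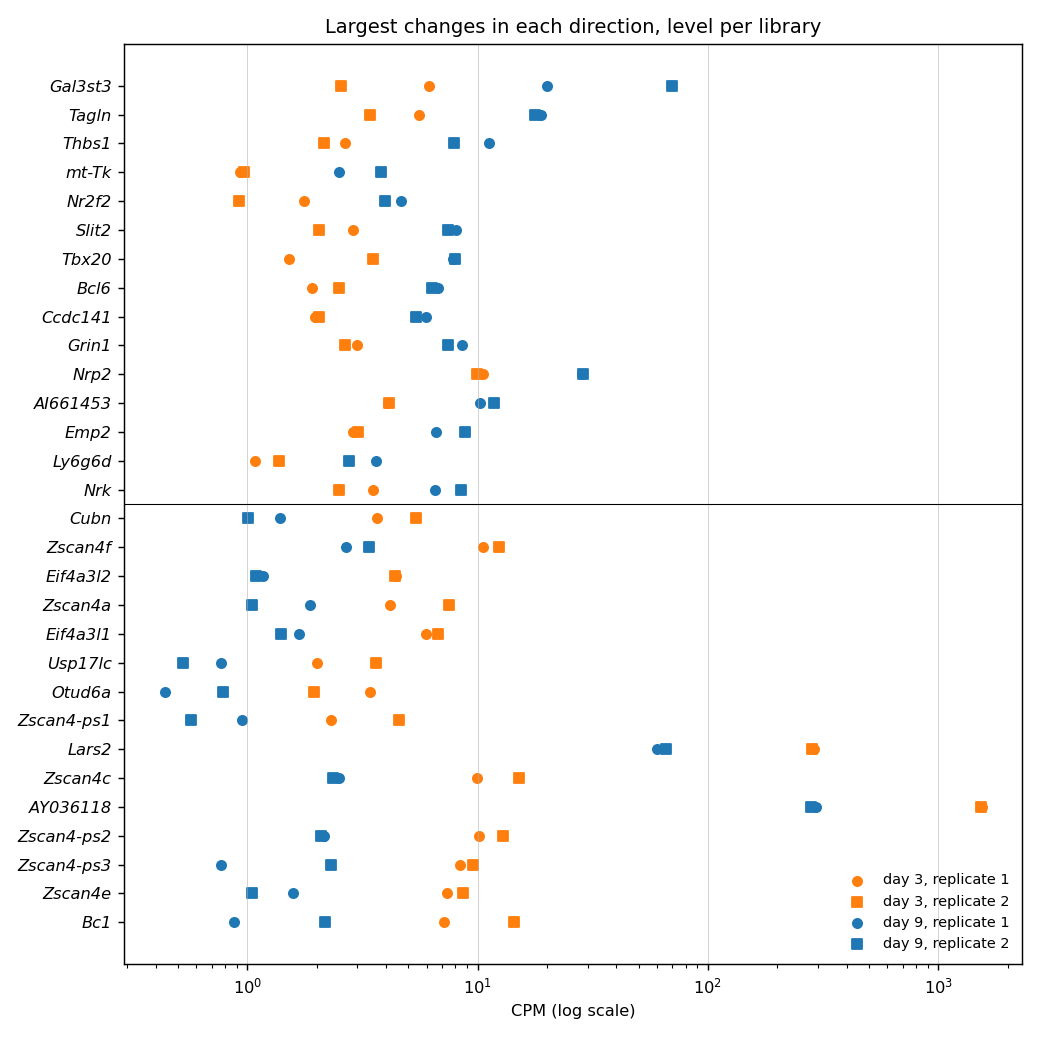
Level per library in CPM (horizontal axis, log scale) for the 15 genes with the largest change in each direction among called genes that average at least 50 counts on the day they are higher, leaving out predicted-gene symbols, higher genes above the line and lower genes below it. Orange marks day 3, blue day 9, circles replicate 1 and squares replicate 2. These genes were also chosen for libraries of the 2 days that do not overlap, so the colours are apart by that choice. Gal3st3 shows the widest spread between replicates of a day.

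The lower genes had values of their own in 2 comparisons that share no library with days 3 and 9. In CtbpDKO against WT cells of the genotype table, 52 of the 117 lower genes with a value were called higher in CtbpDKO (44.4%) and 5 were called lower (4.27%). Over all genes tested in that table, 14.7% were called higher and 11.4% lower. Between days 12 and 18, 41 of the 122 lower genes were called higher on day 18 and 0 lower, with a background of 0.64% higher and 0.18% lower. The 7 called Zscan4 genes were called in both, with log2 fold changes of 4.96 to 10.24 in CtbpDKO over WT and 1.75 to 3.00 from day 12 to day 18. The chromosome 10 array was called in both as well, at 5.44 to 6.26 and 2.05 to 3.28. The 108 genes higher on day 9 were divided in the genotype table, with 46 called higher in CtbpDKO and 28 called lower. From day 12 to day 18, 1 of them was called higher and 8 lower.

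**Figure D4:**
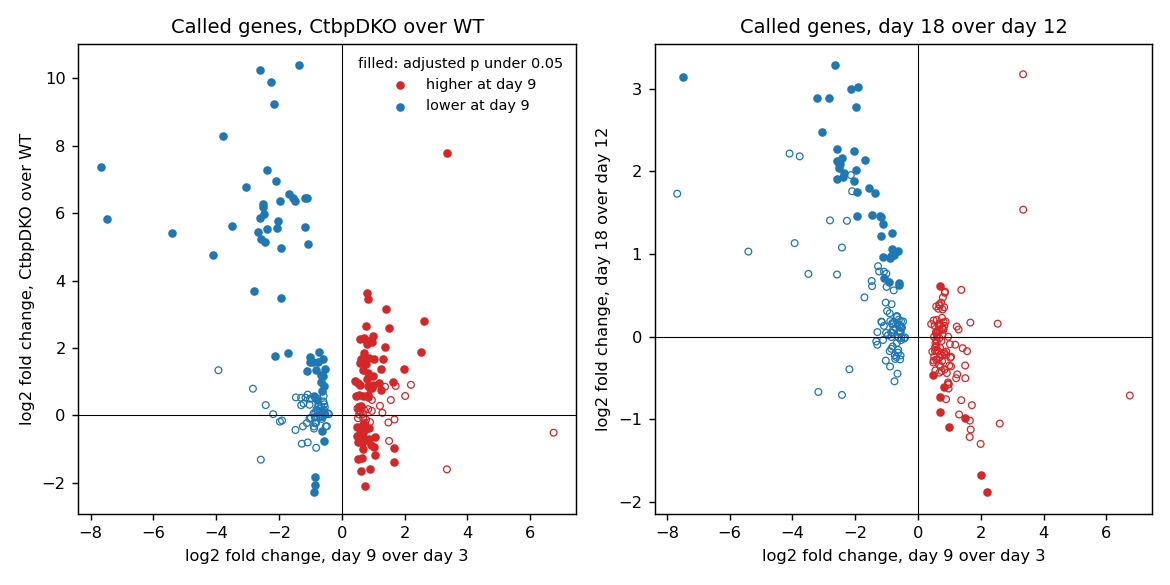
Called genes by their log2 fold change from day 3 to day 9 (horizontal axes) against their own log2 fold change in CtbpDKO over WT (left) and day 18 over day 12 (right), comparisons without a shared library. Red genes were higher and blue genes lower on day 9, and filled points have an adjusted p under 0.05 on the vertical axis. Of the blue genes, 52 lie called above 0 on the left and 41 on the right.

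Of 15 tested genes of DNA methylation, 2 fell (13.3%) and 0 rose. Over all tested genes 0.592% were called lower and 0.524% higher. Dnmt3l, the catalytically inactive partner that stimulates de novo methylation, went from 155 and 133 CPM on day 3 to 77.3 and 75.6 CPM on day 9 (1.88-fold, log2 fold change -0.91, SE 0.12, adjusted p = 0.00328). Dnmt3b, a de novo enzyme, went from 154 and 144 CPM to 99.2 and 96.1 CPM (1.53-fold, adjusted p = 0.0199). Neither gene's libraries overlapped. Day 0 stood at 161 and 163 CPM for Dnmt3l, so its day 3 level was near that of day 0, whereas Dnmt3b had 202 and 230 CPM on day 0. In CtbpDKO over WT the log2 fold change was 1.60 for Dnmt3l and 1.67 for Dnmt3b. The other 13 were not called, among them Tet3 (-0.65, adjusted p = 0.0604) and Tet2 (0.49, adjusted p = 0.0635), which encode methylcytosine oxidases. Of the 2 calls 1 was kept without any 1 of the 4 libraries, that of Dnmt3l. Aire overlaps Dnmt3l on chromosome 10 and was also called lower (8.85 and 9.59 CPM, then 5.49 and 3.62), and the use of strand in counting is not given in the sources used here, so reads in the shared stretch cannot be told apart.

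Imprinted genes went both ways. Sfmbt2, a Polycomb-group gene expressed from the paternal allele in extraembryonic tissue, fell from 75.5 and 68.6 CPM to 34.0 and 34.2 CPM (2.12-fold, log2 fold change -1.08, SE 0.12, adjusted p = 0.00124). It had the day 0 values 107 and 99.2 CPM and a log2 fold change of 5.08 in CtbpDKO over WT. Peg3, a zinc finger gene, rose from 64.7 and 58.1 CPM to 98.3 and 92.3 CPM (1.55-fold, adjusted p = 0.00727). Igf2, a growth factor gene, rose from 6.21 and 7.29 CPM to 11.4 and 13.7 CPM (adjusted p = 0.0394). The splicing factor gene Snrpn fell (30.4 and 39.0 CPM, then 19.099 and 16.5, adjusted p = 0.0299), and it shares its locus with Snurf, which fell as well. The other 28 of 32 tested members of that list were not called. The 2 higher and the 2 lower calls each made up 6.25% of the list. Over all tested genes 0.524% were called higher and 0.592% lower. Leaving out any 1 library kept 0 or 1 of the 2 higher and 1 of the 2 lower calls.

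Nodal and Bmp genes and primitive endoderm genes followed no single direction. Lefty1 and Lefty2, secreted inhibitors and targets of Nodal that lie next to each other on chromosome 1, fell from 54.3 and 47.4 CPM to 26.9 and 29.9 CPM and from 36.8 and 38.7 CPM to 24.95 and 24.1 CPM. Id1, a Bmp target, fell 1.47-fold (40.9 and 41.4 CPM, then 30.2 and 25.8), while the ligand Bmp4 rose 1.496-fold (24.4 and 23.0 CPM, then 38.3 and 32.6). These were 3 lower (18.75%) and 1 higher (6.25%) of 16 tested Nodal and Bmp genes, and the other 12 were not called. Over all tested genes 0.592% were called lower and 0.524% higher. Leaving out any 1 of the 4 libraries left 0 of these 4 calls. Of 19 tested primitive endoderm genes, 2 fell (10.5%) and 0 rose. In that list 9 had a positive and 10 a negative fold change, with a median of -0.001. Cubn, the endocytic receptor of visceral endoderm, fell from 3.67 and 5.40 CPM to 1.39 and 1.00 CPM (3.74-fold, adjusted p = 0.00773). Col4a1, a basement membrane collagen, fell from 136 and 127 CPM to 75.8 and 79.5 CPM (adjusted p = 0.0083). Leaving out 1 library kept 0 or 1 of the 2 calls, with 0 without day 3 replicate 2 or day 9 replicate 2. Both genes were called higher on day 18 than on day 12, Cubn at 34.3 and 31.1 CPM on day 18.

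Of 18 tested naive pluripotency genes, 6 rose and 0 fell on day 9, while 12 did not pass the test. The 6 made up 33.3% of the list, against 0.524% of all tested genes called higher. 14 of the 18 had a positive and 4 a negative fold change. The median log2 fold change was 0.43 against 0.002 over all tested genes. Klf2, a Krüppel-like factor of the naive state, rose from 50.4 and 50.1 CPM to 89.2 and 95.7 CPM (1.84-fold, log2 fold change 0.88, SE 0.11, adjusted p = 0.00328). Tbx3, a T-box factor of the same network, rose from 103 and 110 CPM to 188 and 197 CPM (1.81-fold, adjusted p = 0.00608). Klf4, Zfp42, Tfcp2l1 and Prdm14 were the other 4, with log2 fold changes of 0.60 to 0.86. For Klf2 the day 0 libraries had 81.4 and 95.5 CPM and for Tbx3 160 and 196 CPM, so both genes were low on day 3 and near their day 0 level on day 9. Nanog had 135 and 154 CPM on day 3 and 181 and 207 CPM on day 9, which did not pass the test (log2 fold change 0.43, adjusted p = 0.110). Pou5f1 was level (0.03, adjusted p = 0.949). Of 20 core and formative pluripotency genes 0 were called higher and 1, Dnmt3b, lower. The count of 6 became 1 without day 3 replicate 1, 2 without day 3 replicate 2, 2 without day 9 replicate 1 and 3 without day 9 replicate 2.

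Of 41 tested genes of epithelial adhesion and keratins, 9 rose and 0 fell, while 32 did not pass the test. The 9 made up 22.0% of the list, against 0.524% of all tested genes called higher. 37 had a positive fold change, and the median was 0.44 against 0.002 over all tested genes. Krt8 and Krt18 encode partner keratins of simple epithelia and lie 23874 bases apart on chromosome 15. Krt8 had 47.9 and 42.6 CPM on day 3 and 73.3 and 80.5 CPM on day 9 (1.70-fold, log2 fold change 0.76, SE 0.11, adjusted p = 0.00506). Krt18 had 14.2 and 15.8 CPM and then 26.1 and 25.5 CPM (1.72-fold, adjusted p = 0.00729). The largest rise in the list was that of Ap1m2, an epithelial sorting adaptor subunit, from 4.89 and 4.74 CPM to 10.9 and 11.1 CPM (2.28-fold, adjusted p = 0.0186). The desmosome gene Dsp, the splicing regulator Esrp1, the adhesion gene Epcam, Perp, Sfn and the protease gene St14 rose 1.496-fold to 1.94-fold. As with Klf2, day 3 was the low point for Krt8, which had 98.6 and 108 CPM on day 0 and 130 and 117 CPM on day 12. Zeb1, a repressor of epithelial genes, had 15.8 and 16.2 CPM on day 3 and 11.3 and 11.6 CPM on day 9, which did not pass the test (adjusted p = 0.218). Of 11 tested mesenchymal genes edgeR called 0, with 3 at an unadjusted p under 0.05 and 1 called by DESeq2. The epithelial count fell to 2, 2, 1 and 4 without day 3 replicate 1, day 3 replicate 2, day 9 replicate 1 and day 9 replicate 2.

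The 250 bases before the RefSeq start of both keratin genes, on the minus strand for Krt8 (chr15:102004343-102004592) and the plus strand for Krt18 (chr15:102027966-102028215), are shown because each holds 1 copy of the E-box form bound by Zeb factors, CAGGTG, here read as its complement CACCTG and set in capitals.

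Krt8: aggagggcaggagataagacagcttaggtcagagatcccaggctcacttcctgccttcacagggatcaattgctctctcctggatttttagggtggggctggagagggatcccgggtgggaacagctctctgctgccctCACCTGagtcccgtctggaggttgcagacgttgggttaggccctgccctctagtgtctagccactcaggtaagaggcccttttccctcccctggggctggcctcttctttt
Krt18: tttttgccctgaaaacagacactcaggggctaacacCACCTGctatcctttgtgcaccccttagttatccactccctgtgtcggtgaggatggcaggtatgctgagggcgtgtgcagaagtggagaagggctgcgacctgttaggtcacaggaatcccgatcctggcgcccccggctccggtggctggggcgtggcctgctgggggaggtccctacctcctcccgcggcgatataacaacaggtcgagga

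That motif was searched on both strands in windows from 250 bases before to 50 after each start. It stood in 24 of the 74 higher genes with a window (32.4%), in 16 of the 56 lower genes (28.6%) and in 22.5% of 12310 tested genes with a window. Among the carriers were the higher epithelial genes Ap1m2, Dsp, Epcam and Sfn and the higher naive genes Tfcp2l1 and Zfp42. The called epithelial genes Esrp1, Perp and St14 were not among them. The lower genes Dnmt3l, Dnmt3b, Snrpn, Lncenc1, Crmp1, Bc1 and Lars2 carried it as well. The form CACGTG stood in 10 of the 74, in 3 of the 56 and in 11.2% of the tested genes. A match describes letters only.

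**Figure D5:**
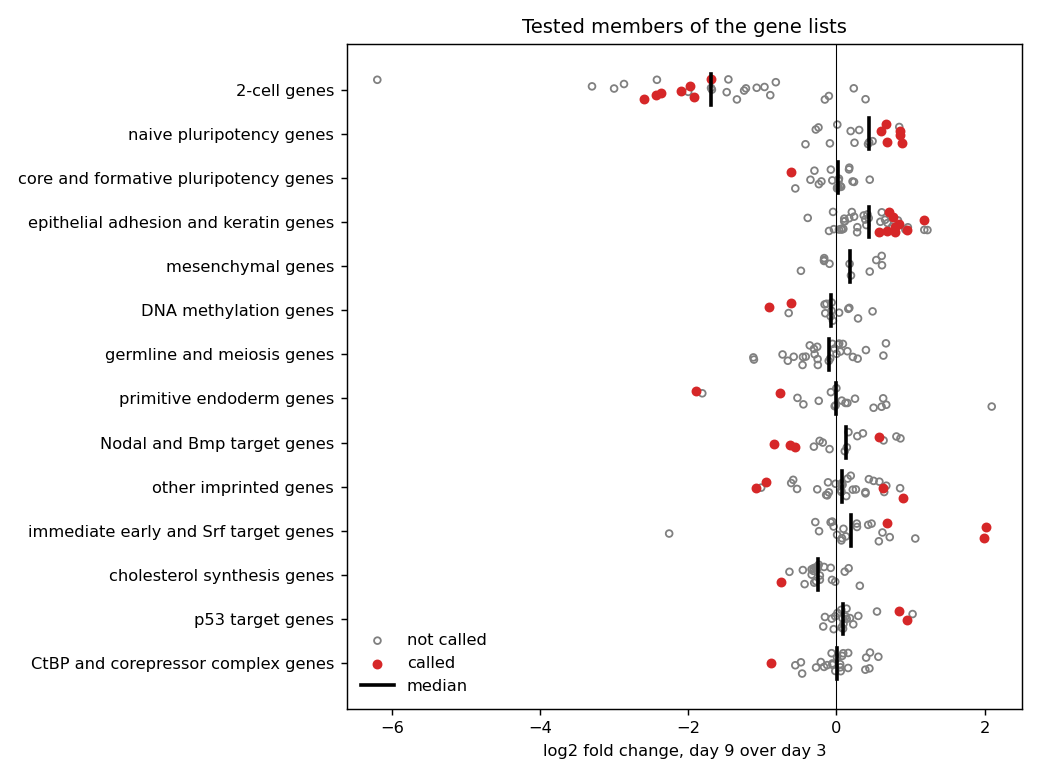
log2 fold change of day 9 over day 3 (horizontal axis) for the tested members of 14 gene lists (vertical axis). Filled red points were called, open points were not, and the black bar is the list's median. The 2-cell list has its median at -1.69, the naive pluripotency list at 0.43 and the epithelial list at 0.44.

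Another set of genes rose above every other day of the course. Nrp2, a receptor for semaphorins and vascular growth factors, had the smallest p of all genes. It stood at 10.5 and 9.89 CPM on day 3 and at 28.4 and 28.7 CPM on day 9 (2.80-fold, log2 fold change 1.48, SE 0.13, adjusted p = 0.000486). Day 0 had 10.2 and 11.3 CPM and day 18 had 10.1 and 9.58 CPM. Slit2, a secreted guidance ligand, rose from 2.88 and 2.04 CPM to 8.05 and 7.46 CPM (3.14-fold, adjusted p = 0.0083). Tagln, an actin-binding gene of smooth muscle and a target of Srf, rose from 5.57 and 3.42 CPM to 18.8 and 17.8 CPM (4.05-fold, adjusted p = 0.00271). It had 2.79 and 1.83 CPM on day 0 and 1.70 and 2.19 CPM on day 18. Thbs1, a matricellular glycoprotein gene, rose from 2.64 and 2.14 CPM to 11.2 and 7.85 CPM (3.99-fold, adjusted p = 0.00519), and the tropomyosin gene Tpm1 rose from 43.3 and 48.0 CPM to 76.8 and 69.5 CPM. Tagln, Thbs1 and Tpm1 were the 3 called of 22 immediate early and Srf target genes matched by symbol and tested. The 3 made up 13.6% of these, against 0.524% of all tested genes called higher. Fos did not pass the test (1.81 and 0.867 CPM, then 3.00 and 2.62, adjusted p = 0.282). Ccn2, which the list gives by its older symbol Ctgf, was missed by that match and was also called higher. Plk2, a kinase gene induced by p53, rose from 31.8 and 30.7 CPM to 54.7 and 57.3 CPM. With Perp it made 2 of 21 tested p53 targets (9.52%), and Cdkn1a, the classical target, was not called (80.7 and 106 CPM, then 147 and 234, adjusted p = 0.137).

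Some lower genes stood highest on day 3. Pabpc1, the poly(A)-binding protein gene, had 867 and 996 CPM on day 3 and 449 and 472 CPM on day 9 (2.02-fold, adjusted p = 0.00635), but its day 0 libraries differed, with 620 and 419 CPM. The RNA-binding gene Pcbp2 and Map3k12, which overlap on chromosome 15, the signalling genes Sos1 and Ywhab, and Wasl, Qser1 and Cdc73 had the same shape. These genes were picked after their values were seen. Sos1, an activator of Ras, had 16.1 and 20.6 CPM on day 3 and 9.40 and 10.3 CPM on day 9, after 10.95 and 8.67 CPM on day 0. Bc1, a brain cytoplasmic RNA, had 1.74 and 1.61 CPM on day 0, 7.14 and 14.3 CPM on day 3 and 0.878 and 2.18 CPM on day 9. In contrast to the genes above, it was high again on day 18, at 12.6 and 14.2 CPM.

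For structural RNA genes the values of the days were as follows. Summed over the 9 tested structural RNA genes, the level was 84820 and 78071 CPM on day 3 and 45216 and 66734 CPM on day 9. 8 of 9 fold changes were negative, with a median of -0.50 against 0.002 over all tested genes. Of the 9, edgeR called 0, with 4 at an unadjusted p under 0.05, and DESeq2 called 2. AY036118, a locus that is known to collect ribosomal RNA reads, fell from 1543 and 1530 CPM to 293 and 280 CPM (adjusted p = 0.00971). Lars2, a mitochondrial tRNA synthetase gene with the same known problem, fell from 288 and 282 CPM to 60.01 and 65.5 CPM (adjusted p = 0.00506). With the structural and small nucleolar RNA genes left out of the counts, the 228 called genes still tested in that fit all kept their calls. AY036118 and Lars2 stayed in that fit, so it cannot show whether calls at such loci come from structural RNA reads.

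A few other lists held 1 or 2 calls. The glucose transporter gene Slc2a3 was the 1 called of 36 tested glycolysis and hypoxia genes and rose from 327 and 337 CPM to 523 and 544 CPM (adjusted p = 0.0164). Of 98 tested small nucleolar RNA genes, Snora73b fell from 59.8 and 68.5 CPM to 34.5 and 45.7 CPM (adjusted p = 0.0315) and Snord22 from 16.3 and 15.3 CPM to 7.54 and 10.4 CPM (adjusted p = 0.0496). Bmp4 was also the 1 called of 13 tested trophoblast genes (7.69%). Of these 13, 12 had a positive and 1 a negative fold change. Their median was 0.47 against 0.002 over all tested genes. Among the 14 lists without a call, with 211 tested members in all, 45 members had an unadjusted p under 0.05 (25 higher, 20 lower) and DESeq2 called 9, against 0 by edgeR. Germline and meiosis genes, which are repressed by DNA methylation in somatic cells, gave 0 of 29, and Smc1b, a meiotic cohesin gene, had an adjusted p of 0.158. Primitive streak and mesoderm genes gave 0 of 10. Of the 10, 8 had a positive and 2 a negative fold change, with a median of 0.88. Among them Eomes, a T-box factor of the primitive streak, had 7.87 and 6.88 CPM on day 3. On day 9 Eomes had 11.6 and 10.1 CPM (log2 fold change 0.56, adjusted p = 0.0849). Interferon genes gave 0 of 22, with Bst2 at -0.60 (adjusted p = 0.0644). Proliferation genes gave 0 of 25, with the cyclin gene Ccnd1 at -0.63 (adjusted p = 0.0853). Wnt target genes gave 0 of 17, with Lef1, a transcription factor of the pathway, at 0.74 (adjusted p = 0.104). The list of mitochondrially encoded protein genes gave 0 of 13, with mt-Cytb at 0.48 (adjusted p = 0.112). In that list 12 fold changes were positive and 1 negative, with a median of 0.38, and DESeq2 called 3 members higher. Outside that list mt-Tk, a mitochondrially encoded tRNA gene, was called higher (log2 fold change 1.72, adjusted p = 0.0347). It had 0.929 and 0.969 CPM on day 3 and 2.49 and 3.80 CPM on day 9.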

How the data were processed

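RNA was sequenced from 10 time course libraries. Reads were trimmed with Trim Galore, aligned with HISAT2 and counted with featureCounts on mm10, per the submitters' processing notes, which give no versions. The deposited values are whole-number counts per gene, and the use of strand in counting is not given in the sources used here. Reads of near-identical copies and of overlapping genes therefore cannot be told apart. With edgeR 4.0.16 (R 4.3.3) genes were filtered by filterByExpr, scaled by TMM and tested by its quasi-likelihood method, with Benjamini-Hochberg adjusted p-values and the 10 libraries in 1 fit and group as the only term. A gene was called at an adjusted p under 0.05. Fitted fold changes used a prior count of 0.125, and the floor was 3 counts per library. The genotype table was fitted and normalized separately, so levels are not compared across tables. The fit was tested on simulated data.

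Named genes were the key factors, up to 15 genes per direction by size of change and up to 6 by p, with libraries that did not overlap, a mean of at least 50 counts and no predicted-gene symbol, and up to 4 members per list. Other genes were named after their values were seen. The members and lists were chosen with earlier results of these data known. Promoter windows and positions came from RefSeq (GRCm38.p6). Alternatives were DESeq2 1.42.0, other scaling factors, filters and prior counts, fewer libraries, a replicate block and leaving out each library. Methylation tables were not used here.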

Additional observations from a re-analysis of the deposited data

How the results depend on the processing

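Against 108 higher and 122 lower genes, DESeq2 called 190 and 249, no low-count filter 342 and 447, a fit of days 3 and 9 alone 71 and 84, and a log2 fold change of at least 1 kept 31 and 65. Leaving out 1 library gave 21 to 36 higher and 33 to 65 lower genes, and 119 of the 230 were called in none of those fits. Ctbp2 was called in each fit, at -0.92 to -0.84 when 1 library was left out. Other scaling factors, a mean of at least 50 counts, a prior count of 2 and structural RNA left out stayed within 1.5 times both counts. Without the low-count filter, 14 genes of the 2-cell list, 9 naive and 17 epithelial genes were called in the direction of the report, and 1 naive gene in the other.

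Same-numbered libraries of days 3 and 9 had deviations that correlated at -0.11 over 14001 genes. This value covers only those days, so it cannot decide whether same-numbered libraries share more than the number. With the replicate number as a block, 90 higher and 103 lower genes were called. Crossing the pairing, chosen after seeing the data, gave 84 and 95.

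Some values changed sign, most of them list medians near 0, and the cause was not tested. Pramel7, at 0.39 and with at most 9 counts in any library of days 3 and 9, ran from -0.43 to 1.32 with 1 library left out. List medians ran from -0.010 to 0.0067 for the CtBP complexes, -0.073 to 0.041 for core and formative pluripotency, -0.042 to 0.055 for primitive endoderm, -0.14 to 0.0062 for glycolysis, -0.0087 to 0.13 for Nodal and Bmp and -0.071 to 0.067 for small nucleolar RNA. The primitive endoderm median was 0.013 with upper quartile factors and 0.0059 without the filter, and that of small nucleolar RNA was -0.22 at a mean of at least 50 counts.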

Other observations

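Several genes outside the lists moved between the days. AI661453 was low on day 3 (4.06 and 4.13 CPM), after 16.2 and 19.4 CPM on day 0, and rose to 10.2 and 11.7 CPM on day 9 (log2 fold change 1.42, adjusted p = 0.00124). Dmrt1, a sex determination factor gene, rose from 12.5 and 11.8 CPM to 23.7 and 26.9 CPM (1.05, adjusted p = 0.00328). The endocytic receptor gene Ly75 rose from 15.01 and 15.8 CPM to 27.5 and 29.9 CPM, and the RNA-binding gene Rbm47 from 14.6 and 13.5 CPM to 25.2 and 25.003 CPM. Cgnl1, a tight junction gene, fell from 52.4 and 43.6 CPM to 19.6 and 24.9 CPM (-1.11, adjusted p = 0.00328). Lncenc1, a long noncoding RNA of naive embryonic stem cells, fell from 38.2 and 42.8 CPM to 22.1 and 21.8 CPM. The neuronal gene Crmp1 fell from 23.6 and 21.1 CPM to 12.7 and 11.2 CPM.

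Of 24 tested cholesterol synthesis genes 1 was called, Fdps, which fell from 36.3 and 32.7 CPM to 21.1 and 19.985 CPM (adjusted p = 0.0188). 21 of the 24 had a negative fold change, with a median of -0.26 against 0.002 over all tested genes. Gal3st3 varied widely between replicates, with 6.16 and 2.55 CPM on day 3 and 19.9 and 69.6 CPM on day 9 (adjusted p = 0.0398).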
